A study of Caenorhabditis elegans with 2 samples.

Results

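Of the 47 large subunit ribosomal protein genes of Caenorhabditis elegans, 12 had a peak of the EGFP-tagged C17E4.6 protein at their promoter, and 4 of these 12 were among the 15 peaks of highest signal in the combined thresholded list. The genes were the protein-coding genes of the WBcel235 annotation whose name starts with rpl- and a digit, 47 of 19973 nuclear coding genes, chosen by name, with no measured value in the rule, though the family was picked with earlier results of these data known. A promoter window ran from 500 bp before to 200 bp after the annotated 5' end of a gene, and a gene whose window held the summit of a thresholded peak is called marked below. By that rule 12 of 47 (25.5%, Wilson 95% interval 15.3 to 39.5) were marked in the list that combines both replicates, where 2.79% of all coding genes were. At 6 of the 12 the summit also lay in the window of a neighbouring coding gene, so the peak cannot be assigned to either gene. Among these 6 were rpl-20 and rpl-15, which belong to the 4 with a peak among the 15 highest. The names were checked against the RefSeq product of each gene. For 45 of the 47 the product was a ribosomal protein. The exceptions were rpl-24.2, given as a putative ribosome biogenesis protein RLP24, and rpl-42, given as a NAM-associated domain-containing protein. Without them 11 of 45 (24.4%) were marked.

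The large ribosomal subunit holds the peptidyl transferase centre, where amino acids are joined, and the tunnel through which the new chain leaves. Its proteins are needed in nearly equal amounts and in large quantity in growing tissue and in the germline, and their genes are spread over the chromosomes as single copies or small families. Many worm genes are trans-spliced, which means that a short leader replaces the original start of the transcript, so that an annotated 5' end can lie downstream of the point where transcription begins. RefSeq names the C17E4.6 gene vps-72. Its relatives in yeast and mammals, known as YL1 or Swc2, bind H2A.Z, a histone variant found near promoters, as part of remodelling complexes that deposit it. The data were 2 biological replicates of chromatin immunoprecipitation with an antibody against GFP in whole young adult worms of strain RW12293, at 62 hours, grown from starved first-stage larvae. All animals carried the same CRISPR insertion of TY1, EGFP and 3xFLAG tags at the gene itself, so there was 1 group and no untagged worm or control immunoprecipitation was analysed here. Whole animals were used, so a peak cannot be assigned to a tissue. How deeply each library was sequenced is unknown here, and intervals cover counting error only. Each replicate had 1 thresholded list, of 570 peaks for replicate 1 and 414 for replicate 2, and 1 ranked list of 43313 and 45592 peaks. The combined thresholded list held 1017 peaks and its ranked list 65464. Signal is the value the authors' peak caller gave each peak, on a scale that is not stated and may differ between lists. Values of the 2 replicates are therefore given side by side, and a ratio between them is set beside the same ratio over all matched peaks.

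The sequence around the summits is shown first, since several of the marked promoters share short words there. Of the 12 windows 10 are printed: 9 that hold a capitalised word and that of rpl-12, which holds none. Those of rpl-24.2, which holds none, and rpl-41.2, which holds the second word, are not shown. Each stretch is 151 bases centred on the combined summit, read 5' to 3' on the strand of the rpl gene, from the RefSeq copy of WBcel235. Capitals mark 3 words of 7 letters on either strand. The first word is GGCCTAA. The second word is GGTCTCG. The third word is AAGTGTA. On the plus strand of the assembly lie rpl-3 at chrIII:3867499-3867649, rpl-35 at chrIII:7854621-7854771, rpl-38 at chrV:15511721-15511871 and rpl-29 at chrIV:13881856-13882006. On the minus strand lie rpl-20 at chrIV:4749993-4750143, rpl-15 at chrIV:654853-655003, rpl-12 at chrIV:13240603-13240753, rpl-7A at chrIV:4390578-4390728, rpl-21 at chrIII:8130474-8130624 and rpl-39 at chrV:7776237-7776387.
rpl-3: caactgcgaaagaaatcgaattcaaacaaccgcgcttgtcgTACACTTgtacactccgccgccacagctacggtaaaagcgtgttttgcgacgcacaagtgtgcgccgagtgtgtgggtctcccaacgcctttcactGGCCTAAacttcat
rpl-35: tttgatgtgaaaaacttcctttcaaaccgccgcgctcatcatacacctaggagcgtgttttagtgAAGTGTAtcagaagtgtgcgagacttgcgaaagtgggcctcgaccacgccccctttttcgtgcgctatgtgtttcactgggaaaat
rpl-20: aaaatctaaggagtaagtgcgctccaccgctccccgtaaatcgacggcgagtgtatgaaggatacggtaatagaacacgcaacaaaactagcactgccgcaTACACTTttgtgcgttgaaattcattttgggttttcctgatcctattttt
rpl-15: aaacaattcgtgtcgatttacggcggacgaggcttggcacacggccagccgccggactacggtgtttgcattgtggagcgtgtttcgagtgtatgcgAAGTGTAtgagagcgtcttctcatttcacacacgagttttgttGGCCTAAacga
rpl-12: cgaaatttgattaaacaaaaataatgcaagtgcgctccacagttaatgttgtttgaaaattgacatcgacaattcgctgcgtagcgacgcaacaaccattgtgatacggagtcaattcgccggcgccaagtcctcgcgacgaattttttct
rpl-7A: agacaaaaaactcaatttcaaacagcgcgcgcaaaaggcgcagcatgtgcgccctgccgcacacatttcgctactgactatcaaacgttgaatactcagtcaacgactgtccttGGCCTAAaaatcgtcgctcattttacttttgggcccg
rpl-38: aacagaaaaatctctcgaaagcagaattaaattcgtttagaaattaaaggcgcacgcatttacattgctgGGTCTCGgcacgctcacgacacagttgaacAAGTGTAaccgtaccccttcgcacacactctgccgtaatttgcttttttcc
rpl-29: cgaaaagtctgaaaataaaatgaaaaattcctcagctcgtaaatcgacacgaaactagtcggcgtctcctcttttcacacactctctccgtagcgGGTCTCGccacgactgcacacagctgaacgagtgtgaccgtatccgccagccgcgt
rpl-21: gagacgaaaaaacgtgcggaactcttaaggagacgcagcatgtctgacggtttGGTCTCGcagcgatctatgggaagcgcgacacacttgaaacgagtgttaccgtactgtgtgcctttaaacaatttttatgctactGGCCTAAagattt
rpl-39: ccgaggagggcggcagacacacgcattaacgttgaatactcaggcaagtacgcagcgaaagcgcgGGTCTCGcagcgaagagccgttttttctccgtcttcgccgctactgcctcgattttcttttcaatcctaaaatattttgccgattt

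The 3 words were picked after the sequences had been seen, by the rule that a word of 8 letters was held by at least 4 of the 12 summit windows, or a word of 7 letters by at least 5. Every word of 8 letters that met it contained GGCCTAA or GGTCTCG, and of the words of 7 letters AAGTGTA was the least frequent in the windows of other promoter summits. A further word, ACACTCG, lay in 6 of the 12 windows and in 2.26% of the others, and is not in capitals. Their counts in the 12 windows are therefore a description and support nothing. The word GGCCTAA lay in the windows of rpl-3, rpl-15, rpl-7A and rpl-21, against 2.04% of the 442 windows at other promoter summits. The word GGTCTCG lay in those of rpl-38, rpl-29, rpl-21, rpl-39 and rpl-41.2, against 10.4%. The word AAGTGTA lay in those of rpl-38, rpl-15, rpl-20, rpl-35 and rpl-3, against 2.04%, and so in each of the 4 windows of highest signal. Of the 12 windows, 8 held GGCCTAA or GGTCTCG and 1, that of rpl-21, held both.

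Promoters outside the 12 marked rpl genes give counts of another kind. Among the 35 unmarked rpl genes, 11 (31.4%) held GGCCTAA in the promoter window of 701 bases and 12 (34.3%) held GGTCTCG, while 3.60% and 7.02% of all coding promoters did. Of the 31 rps promoters, for proteins of the small subunit, 7 (22.6%) and 9 (29.0%) held them. The promoter of rps-30 shares with rpl-39 a summit window that chose GGTCTCG, so the rps count of that word is not wholly separate from the choice. Of the 41 mrpl promoters, for the mitochondrial large subunit, 2 (4.88%) and 3 (7.32%) did. In the 12 marked rpl promoters the counts were 5 and 5 (41.7% each), with Wilson intervals from 19.3 to 68.0%. The intervals of the unmarked ones were 18.6 to 48.0% and 20.8 to 50.8%. The summit windows of the marked promoters chose both words. The counts in the marked promoters were therefore fixed in part by the choice and give no comparison with the unmarked ones. Both words were held by many rpl promoters without a thresholded peak. AAGTGTA was held by 5 of 12 marked and 1 of 35 unmarked rpl promoters (2.86%), 1 of 31 rps promoters and 10.4% of all coding promoters. As the 12 summit windows chose it, the first of these counts was fixed in part by the choice.

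Most matches in the rpl promoters read one way relative to the gene. How matches read in rps or all coding promoters was not compared, so the direction cannot be called a trait of the family. The counts below include the marked promoters, whose summit windows chose the words. They also include overlapping matches to the first word at rpl-11.1, 141 and 144 bp upstream, which read on opposite strands. Of 19 matches to the first word in 16 promoters, 14 read GGCCTAA on the strand of the gene, at a median of 225 bp before the 5' end. Of 17 matches to the second word in 17 promoters, 13 read GGTCTCG on the strand of the gene, at a median of 275 bp. The promoters of rpl-2, rpl-7, rpl-17, rpl-21 and rpl-26 held both words, and the summit window of rpl-21 was among those that chose them. In each of these 5 a match to the second word, on either strand, lay farther upstream than one to the first, by 59 bp at rpl-2, 73 at rpl-26, 75 at rpl-7, 85 at rpl-21 and 93 at rpl-17. At rpl-7 a further match to the first word lay 70 bp after the 5' end.

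**Figure D1:**
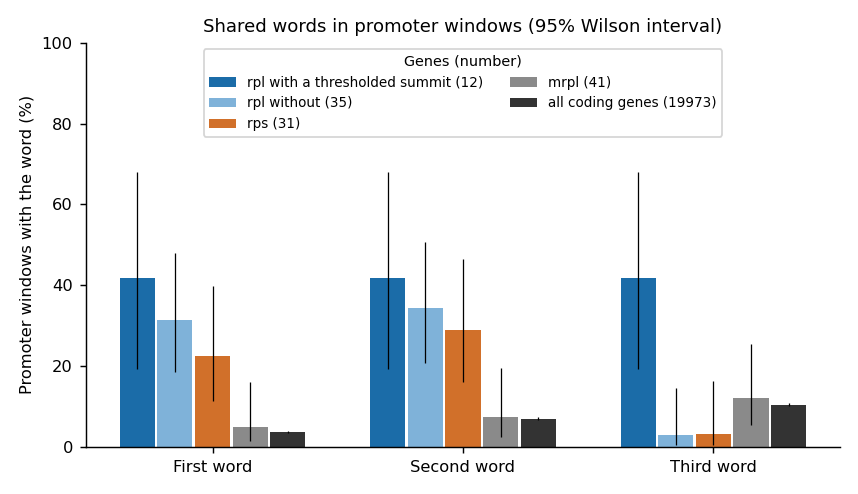
Share of promoter windows (vertical axis, %) that hold the first word (GGCCTAA), the second word (GGTCTCG) and the third word (AAGTGTA) on either strand, for marked and unmarked rpl genes, rps genes, mrpl genes and all coding genes, with 95% Wilson intervals. The first word was in 31.4% of unmarked rpl promoters and 3.60% of all coding promoters, and the third in 2.86% and 10.4%.

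A panel of motifs of known factors was searched on both strands in the same windows. For E2F the word TTGGCGC was searched with its variants in which the middle GG reads CC, GC or CG. It lay in 1 of the 12 rpl windows, that of rpl-12, and in 30.3% of the windows at other promoter summits. In the whole promoter window 6 of 47 rpl genes (12.8%) and 19.5% of all coding genes held it. The EOR-1 word CTGCGTCT lay in the windows of rpl-21 and rpl-41.2, against 8.60% of the others. The E box CACGTG, the GATA word AGATAA, the ETS word CCGGAAG, the CREB word TGACGTCA and the TATA word TATAAA lay in none of the 12, against 3.85%, 4.75%, 0.226%, 1.36% and 8.14% of the others. A run of 7 T lay in none of the 12 and in 84 of the other 442. The SP1 word GGGCGG lay in that of rpl-39, against 8.82%. The word GGTCACACT, the GAGA word GAGAGAG and the splice acceptor TTTCAG each lay in that of rpl-29, against 0.226%, 9.05% and 17.2%. A match to letters is no evidence of binding, and 12 windows allow no firm share. The median GC content of the 12 windows was 48.3%, from 42.4 to 53.0%, and that of all 454 promoter summits was 45.7%.

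Among the proteins of the catalytic centre and the constriction of the tunnel, 1 of 4 genes was marked, and its peak had the highest signal of the combined thresholded list and ranked 2 in the combined ranked list. The gene rpl-3, for uL3, which reaches towards the peptidyl transferase centre, lies on chromosome III from 3867854 to 3869587 on the plus strand. Its summit was 280 bp upstream, with a signal of 435.3 in the combined list, 228.7 in replicate 1 and 215.3 in replicate 2. The replicate summits lay 10 and 16 bp from the combined one, and no other coding gene had its promoter window there. The other genes of this class were unmarked. The gene rpl-4, for uL4, which lines the tunnel constriction, had a highest signal of 45.9 in the combined ranked list and a score of 59, where the score follows the irreproducible discovery rate (IDR) and the threshold is 830. The gene rpl-10, for uL16, which is added late in assembly, had a signal of 15.6. The gene rpl-2, for uL2, had a ranked peak in its window in replicate 2 only, with a signal of 15.1.

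The rim of the tunnel exit had 3 marked genes of 10. The gene rpl-35, for uL29, lies on chromosome III from 7855134 to 7855646 on the plus strand, and its summit, 438 bp upstream, had signals of 326.3 combined, 197.2 in replicate 1 and 122.1 in replicate 2. No other marked member had its summit farther upstream. The gene rpl-38, for eL38, on chromosome V from 15512166 to 15512737, had a summit 370 bp upstream with a signal of 76.8. It scored 1000, the highest value the score takes, in the combined list, but 799 in replicate 1 (signal 42.7) and 611 in replicate 2 (34.0), so neither replicate alone passed. The gene rpl-39, for eL39, a small protein inside the tunnel, lies on chromosome V from 7775742 to 7776079 on the minus strand. Its summit, 233 bp upstream, had the lowest signal of the 12, 58.9, and a score of 840. It passed in replicate 1 (signal 44.1, score 839) and not in replicate 2 (15.8, score 48). This summit also lies 266 bp before rps-30, for a small subunit protein transcribed in the other direction, and inside exons of a pair of annotated noncoding RNAs, C26F1.13 and C26F1.14. The other 7 of the class, rpl-17, rpl-19, rpl-22, rpl-25.1, rpl-25.2, rpl-26 and rpl-31, had highest combined ranked signals from 9.6 at rpl-26 to 56.8 at rpl-31.

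The stalks and the 5S RNA particle gave 1 marked gene of 5. The gene rpl-12, for uL11 at the base of the stalk where elongation factors land, lies on chromosome IV from 13239587 to 13240651 on the minus strand. Its summit was 27 bp upstream, the closest of the 12 to the gene, with signals of 221.9 combined, 129.1 in replicate 1 and 89.5 in replicate 2. It also lies 366 bp before lin-54, which encodes the DNA-binding subunit of the DREAM complex. The gene rpl-1, for uL1 of the other stalk, had a combined ranked signal of 22.7. The particle that brings 5S RNA to the subunit holds uL18 and uL5, encoded by rpl-5, rpl-11.1 and rpl-11.2, and none of these 3 was marked. Their combined ranked signals were 55.1 at rpl-5, 54.4 at rpl-11.2 and 14.3 at rpl-11.1.

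Of the other 28 genes 7 were marked, led by rpl-20 and rpl-15. The gene rpl-20, for eL20, lies on chromosome IV from 4749123 to 4749778 on the minus strand, with its summit 290 bp upstream and signals of 313.3 combined, 167.8 in replicate 1 and 147.2 in replicate 2. The same summit lies 172 bp before Y17G9B.5, which faces the other way and is the nearer of the pair. The gene rpl-15, for eL15, lies on chromosome IV from 653480 to 654576 on the minus strand. Its summit, 352 bp upstream, had signals of 285.1 combined, 152.5 in replicate 1 and 129.8 in replicate 2, and it lies 462 bp before K11H12.8. In the combined list of 1017 peaks, rpl-3 ranked 1, rpl-35 ranked 6, rpl-20 ranked 8 and rpl-15 ranked 11.

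The gene rpl-7A, for eL8, lies on chromosome IV from 4389143 to 4390590 on the minus strand. Its summit, 63 bp upstream and 191 bp before set-21, a SET domain gene, had signals of 152.9 combined, 83.8 in replicate 1 and 72.8 in replicate 2. At rpl-24.2 the summit was 146 bp upstream with signals of 144.1, 80.4 and 53.8, and it lay in an intron of C03D6.1 on the opposite strand. The yeast homologue of this protein is an assembly factor that holds a place in the immature subunit which eL24 later takes. At rpl-41.2, for the very short protein L41, the summit was 296 bp upstream with signals of 90.6, 53.5 and 45.3. All of these passed the threshold in each replicate.

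The last of the marked genes were weaker and rested on 1 replicate or on the combined data. The gene rpl-29, for L29, on chromosome IV from 13882225 to 13882618, had a summit 294 bp upstream with a combined signal of 70.4 and a score of 1000. Its signals of 33.2 and 37.0 in replicates 1 and 2 had scores of 412 and 699, so that neither passed alone. The other 11 marked genes had the higher listed signal in replicate 1, as did 682 of the 913 combined peaks matched in both replicates. The gene rpl-21, for eL21, on chromosome III from 8129551 to 8130227, had a summit 322 bp upstream and 303 bp before the divergent C14B9.10, with a combined signal of 66.2 and a score of 870. Its signal was 47.2 in replicate 1, with a score of 903, and 14.7 in replicate 2, with a score of 33. The gene rpl-43, for eL43, lay outside the window: its summit, with a signal of 64.5, was 717 bp upstream and 204 bp before Y48B6A.1. With the window drawn out to 1000 bp upstream, 13 of 47 rpl genes (27.7%) and 3.59% of all coding genes held a summit. Nearest to the edge inside the window was rpl-35, at 438 bp. By score, rpl-39 with 840 was just inside the threshold and rpl-27 with 748 just outside.

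**Figure D2:**
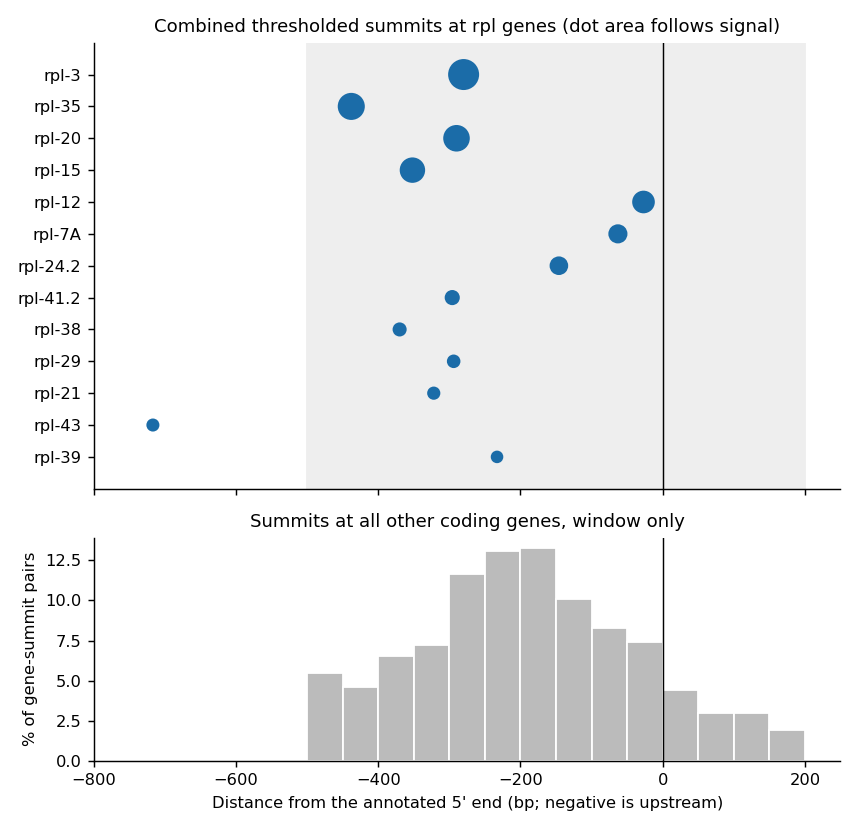
Top, distance of each combined thresholded summit from the annotated 5' end of the rpl gene (bp), with dot area following the combined signal and the promoter window shaded. Bottom, the same distance for all other coding genes in bins of 50 bp, as % of gene-summit pairs, counted in the window only. Of the 12 rpl summits in the window 9 lie between 200 and 450 bp upstream, and rpl-43 lies at 717 bp.

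The summits lay farther from the annotated 5' end than those of coding genes in general. The median was 292 bp upstream over the 12 rpl summits, with a range from 27 to 438 bp, and none was downstream. Over all 578 pairs of a coding gene and a summit in its window the median was 196.5 bp, and 69 pairs were downstream. Of the 12, 9 lay between 200 and 450 bp upstream, limits set after the values were seen, against 43.9% of all pairs and 10 of 13 at rps genes. The 5' ends themselves differed too. At 38 of the 47 rpl genes (80.9%) the bases just before the annotated 5' end were AG, as at a splice acceptor, against 27.6% of all coding genes and 262 of the 558 marked ones. The rps genes shared this, with AG at 28 of 31 (90.3%). At 23 of the 47 rpl genes (48.9%) they read TTTCAG, against 15 of 31 rps genes (48.4%) and 12.3% of all coding genes. Of the 12 marked rpl genes 9 ended in AG there; rpl-7A, rpl-12 and rpl-38 did not. The summits of these 3 lay 63, 27 and 370 bp upstream. Whether trans-splicing accounts for the distances was not tested.

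Many rpl genes share their upstream region with a neighbour that is transcribed in the other direction. Of the 47, 28 (59.6%) had another coding gene head to head, with 5' ends within 1000 bp, against 17.7% of all coding genes. The rps genes were alike in this, with 19 of 31 (61.3%). Of these 28, 6 (21.4%) were marked, and of the other 19 rpl genes 6 (31.6%) were. Over all head-to-head coding genes 7.49% were marked, and over all coding genes 2.79%. The 6 marked pairs joined rpl-20 with Y17G9B.5, rpl-15 with K11H12.8, rpl-12 with lin-54, rpl-7A with set-21, rpl-21 with C14B9.10 and rpl-39 with rps-30. In all 6 the 1 summit lay in both windows, so the peak cannot be assigned to either gene. When each summit was given to the nearest coding 5' end only, 10 rpl genes (21.3%) and 2.19% of coding genes were marked, and rpl-20 and rpl-21 were lost to their neighbours. Summits in the window of the rpl gene alone marked 6 genes, rpl-3, rpl-35, rpl-24.2, rpl-41.2, rpl-38 and rpl-29.

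The marked rpl genes were unevenly spread over the chromosomes. On IV 5 of 7 rpl genes were marked, on III 3 of 9, on V 2 of 5 and on I 2 of 15, while none of 9 on II and none of 2 on X were. Over all coding genes the shares were 3.63% on IV, 4.66% on III, 1.52% on V, 4.41% on I, 2.67% on II and 0.769% on X. The 9 genes on II were rpl-5, rpl-10, rpl-22, rpl-26, rpl-32, rpl-33, rpl-36.A, rpl-42 and rpl-43, and those on X were rpl-11.2 and rpl-25.1. Numbers this small give no test of a chromosome.

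The 8 strongest of the 12 sites were found in each replicate's thresholded list, with an overlap of 1 bp or more, and the 4 weakest were not. The peaks at rpl-21 and rpl-39 were found in replicate 1 only, and those at rpl-38 and rpl-29 in neither. Replicate 1 alone marked 10 rpl genes (21.3%, against 1.72% of all coding genes), and replicate 2 alone marked 8 (interval 8.89 to 30.1%, against 1.34%). Across the 12 sites the signals of the 2 replicates had a Spearman's rho of 0.909, and on the log2 scale a Pearson's r of 0.903. Over the 913 combined peaks matched in both replicates these were 0.493 and 0.58. The sites come from the same 2 libraries, and the list was cut for reproducibility. As a log2 ratio, replicate 2 over replicate 1, the median was -0.28 (SD 0.55 across 12 sites), and over those 913 peaks it was -0.33 (SD 0.56). By this SD the scatter between replicates was similar in both sets, though the correlations differed. At rpl-21 it was -1.68 and at rpl-39 it was -1.48, and at the other 10 sites it ran from -0.69 at rpl-35 to 0.16 at rpl-29. The authors' conservative list marked 10 rpl genes (21.3%, against 2.66% of coding genes), all of the 12 but rpl-21 and rpl-39.

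The signal of the marked rpl genes spread over most of the range of the list. Its median over the 12 summits was 148.5, with a range from 58.9 to 435.3, and the median over all 454 promoter summits was 86.3. Of the 12, 6 ranked within the first 100 of the 1017 peaks and 8 within the first 508. Those 508 peaks marked 8 rpl genes and 1.68% of coding genes. A narrow window, from 250 bp upstream to 100 bp downstream, held a summit at 4 rpl genes (8.51%, against 1.68% of coding genes), rpl-12, rpl-24.2, rpl-39 and rpl-7A. It left out the 4 strongest. A wide window, from 1000 bp upstream to 500 bp downstream, held one at 14 (29.8%, against 3.74%), adding rpl-43 and rpl-18, whose summit lay 268 bp downstream with a signal of 71.1. In that window rpl-43 had a second summit, 415 bp downstream with a signal of 91.7, and rpl-35 had one 448 bp downstream with a signal of 59.8. The combined ranked list taken down to the same score of 830, which adds 70 peaks, marked the same 12 rpl genes and 2.79% of coding genes.

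Below the threshold most of the other rpl promoters still had a ranked peak. The combined ranked list, which runs down to very weak peaks, had a summit in the window of 44 of 47 rpl genes (93.6%, Wilson interval 82.8 to 97.8), against 42.9% of all coding genes. In replicate 1 it was 39 (83.0%, against 33.2%), in replicate 2 it was 36 (76.6%, against 34.1%), and 33 had one in both. With an absent peak counted as 0, the median of the highest signal in the window over all 47 was 45.5 in the combined ranked list, 23.6 in replicate 1 and 19.2 in replicate 2. Over all coding genes it was 0 in each list. Over the 31 rps genes it was 50.1, 27.5 and 24.4, and over the 41 mrpl genes 13.0, 11.8 and 0. A signal above 49.2, the level that 5.00% of all coding genes exceed, was found at 21 of the 47 rpl genes (44.7%), the 12 marked ones and 9 more. Above the level for 5.00% of genes in their own list were 17 rpl genes in replicate 1 and 20 in replicate 2, of which 5 and 10 were unmarked. In the combined ranked list no peak in the window of an unmarked rpl gene reached the score of 830 set as the threshold. That follows largely from the rule by which genes were called marked.

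**Figure D3:**
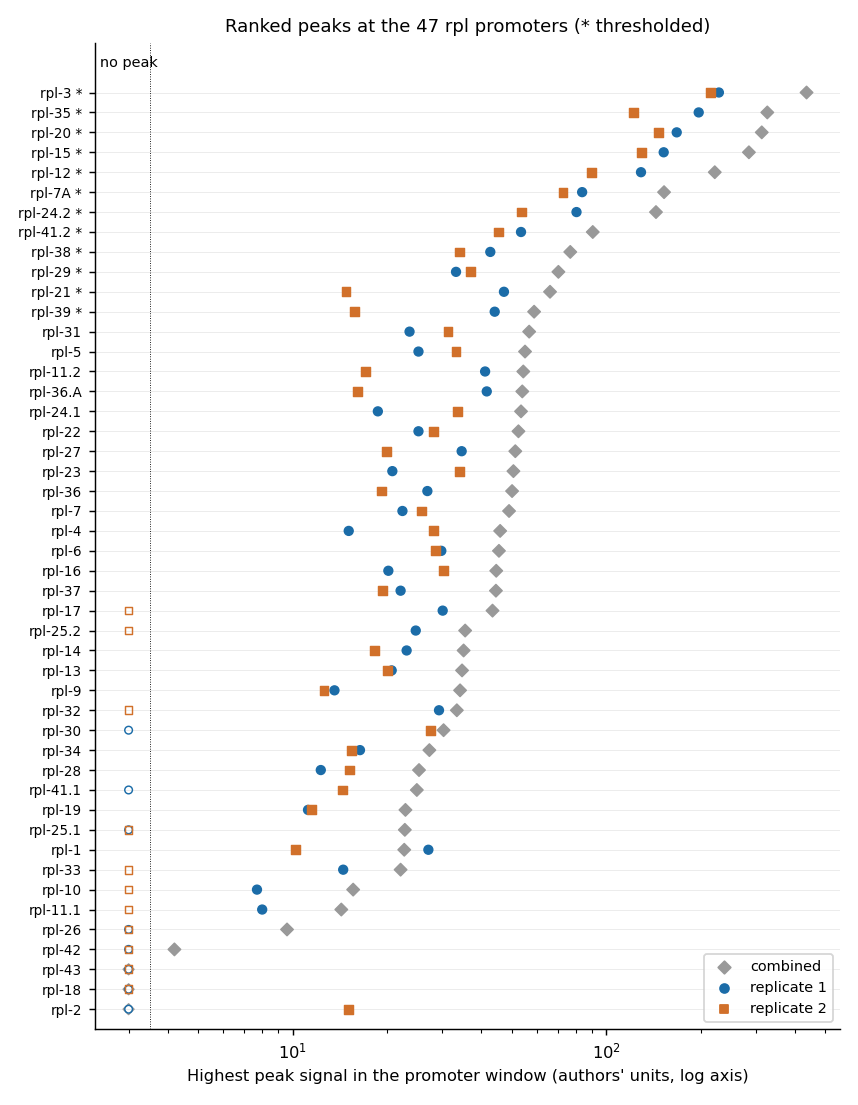
Highest peak signal in the promoter window of each of the 47 rpl genes (authors' units, log axis) in the ranked lists of replicate 1, replicate 2 and both combined, in order of the combined signal. Open symbols at the left stand for no peak in the window and asterisks for the 12 genes with a thresholded summit, whose combined signals run from 58.9 to 435.3.

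The 5 unmarked genes of highest combined ranked signal were rpl-31 (56.8), rpl-5 (55.1), rpl-11.2 (54.4), rpl-36.A (54.0) and rpl-24.1 (53.5). The listed signal was higher in replicate 1 at some of these genes and in replicate 2 at others. At rpl-11.2 the signal was 41.1 in replicate 1 and 17.1 in replicate 2, and at rpl-36.A it was 41.6 and 16.1. At rpl-5 replicate 2 had the higher signal, 33.2, at rpl-31 it was 23.6 and 31.3, and at rpl-24.1 it was 18.7 and 33.5. Next came rpl-22, rpl-27, rpl-23 and rpl-36, from 52.5 down to 50.1, and then rpl-7, rpl-4, rpl-6, rpl-16, rpl-37 and rpl-17, down to 43.4. The signals of rpl-25.2, rpl-14, rpl-13, rpl-9, rpl-32 and rpl-30 lay between 35.5 and 30.3. Those of rpl-34, rpl-28, rpl-41.1, rpl-19, rpl-25.1, rpl-1 and rpl-33 lay between 27.3 and 22.1, and those of rpl-10, rpl-11.1, rpl-26 and rpl-42 between 15.6 and 4.2. The 3 members rpl-2, rpl-18 and rpl-43 had no summit in the window in this list. Of the 32 unmarked genes with a ranked peak, 26 had a score below 415, or 50% of the threshold.

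Of the 6 pairs of rpl genes with a common number, 3 had 1 marked member and 3 had none. Of rpl-24.1 and rpl-24.2, the first of which encodes the ribosomal protein eL24, the second was marked (144.1 combined) and the first was not (53.5). Of rpl-41.1 and rpl-41.2, which follow each other on the same strand 699 bp apart, the second was marked (90.6) and the first had a ranked signal of 24.9 with no peak in its window in replicate 1 and one of 14.4 in replicate 2. The summit of rpl-41.2 lies between them. Neither of rpl-11.1 (14.3) and rpl-11.2 (54.4), for uL5, was marked. Neither of rpl-25.1 (22.8) and rpl-25.2 (35.5), for uL23, was marked, and rpl-25.1 had no ranked peak in either replicate. The genes rpl-7 and rpl-7A share a number but encode different proteins, uL30 and eL8. The first was unmarked, with signals of 22.4 in replicate 1 and 25.8 in replicate 2. Likewise rpl-36 encodes eL36 and rpl-36.A eL42. Neither was marked, and their combined ranked signals were similar, 50.1 and 54.0. The combined signals of marked and unmarked members are from the combined ranked list, where the thresholded peaks keep their values.

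Other genes of the ribosome were marked to different extents. Of the 4 large subunit proteins under other names, 3 were marked. They were ubq-2, which encodes ubiquitin fused to a ribosomal protein (signal 71.3, 482 bp upstream), and the stalk protein genes rla-1 (69.5, 158 bp downstream) and rla-2 (64.5, 130 bp downstream). The gene rla-0 was not. Of the 31 rps genes 13 (41.9%, interval 26.4 to 59.2) were marked, and their interval overlaps that of the rpl genes. The median signal of the 13 rps summits was 90.9, with 209.8 the highest, at rps-1. None of 41 mrpl genes was marked, which allows a share of up to 8.57% by the Wilson interval and 7.32% by the limit of 3 counts. Of 31 genes for ribosome making, 2 (6.45%, interval 1.79 to 20.7) were marked, dkc-1, for the dyskerin homologue that makes pseudouridine (134.8), and nol-10, a nucleolar protein gene (101.6). The share over all coding genes, 2.79%, lies inside the intervals of the mrpl and the ribosome making genes. These counts are too small to tell whether either list differs from it. The rps summits lay at a median of 266 bp upstream, beside 292 bp for the rpl summits. The 5 highest rpl signals, 221.9 and above, exceeded every rps signal, though the summits of rpl-20, rpl-15 and rpl-12 among them were shared with a neighbour. The next rpl signal, 152.9 at rpl-7A, was below those of rps-1, rps-19, rps-12 and rps-24. The lowest signal of both lists, 58.9, was that of the summit shared by rpl-39 and rps-30.

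**Figure D4:**
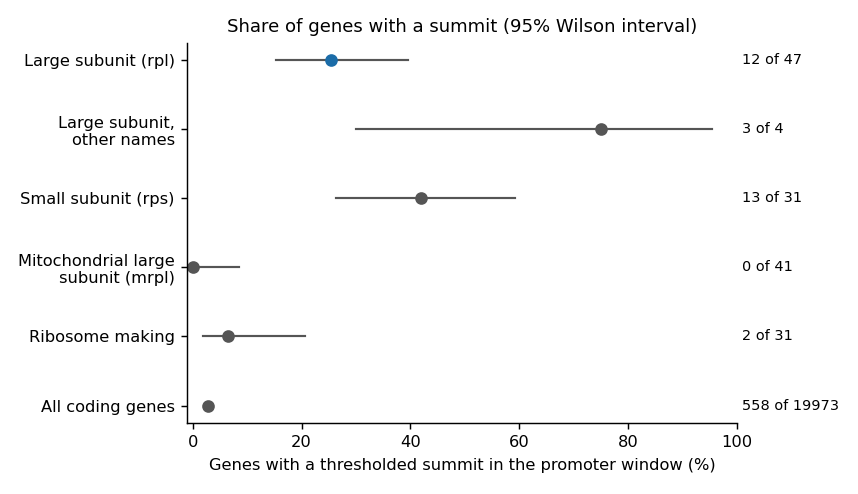
Share of genes with a combined thresholded summit in the promoter window (%), with 95% Wilson intervals, for rpl genes, large subunit genes under other names, rps, mrpl and ribosome making genes and all coding genes; the counts stand at the right. The rpl genes are at 25.5%, the rps genes at 41.9% and all coding genes at 2.79%.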

How the data were processed

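Peak lists of chromatin immunoprecipitation sequencing were analysed for 2 biological replicates of 1 group. Per the deposited text files, each list came from alignments of 1 replicate or of both, with an input common to all lists. The labels give the assembly as ce11, which is WBcel235. The aligner is not stated in the sources used here, nor is the caller. The deposited signal of each peak is on a scale that is not stated. The deposited score follows the −log10 of the irreproducible discovery rate, with a cap of 1000, and thresholded lists start at 830, a rate of 0.01. The deposited −log10 q broke ties of signal. The 2 ranked lists made from both replicates hold 16 unlabelled columns, which were left out. The depth per sample is unknown.

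Coordinates start at 1. Genes came from Ensembl release 115, without the 12 coding genes of the mitochondrial genome, and sequence and products from RefSeq. Ranks follow signal within a list. Replicate summits were matched to a combined summit within 100 bp, and words and GC content were read up to 75 bp from a summit. No test was run, since there is 1 group and genes are not replicates. Counts carry Wilson intervals. The search for summits in windows was tested on simulated data. Python 3.11.15, numpy 2.4.6, pandas 2.3.3 and scipy 1.17.1 were used. The members, lists and classes were chosen with earlier results of these data known, and the shared words after the sequences were seen. The genes described singly are the members with a summit in the window or up to 1000 bp upstream, both members of each pair with a common number, the 5 unmarked members of highest ranked signal and the coding genes that share a summit with a marked member; the other members are named in groups. The catalytic and stalk members without a summit and the marked genes of the comparison lists were added to these. Of the comparison lists, 6 of 37 names for ribosome making did not match the annotation. Alternatives were other lists, windows, matching rules and 1 gene per peak. The list with 70 peaks restored, summits of the rpl gene alone and members with a ribosomal RefSeq product were added after the data were seen.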

Additional observations from a re-analysis of the deposited data

How the results depend on the processing

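The count of 12 marked rpl genes was within 1.5 times under the conservative list, the 508 strongest peaks, the long and wide windows, 1 gene per peak, and, chosen after seeing the data, the restored peaks and the members with a ribosomal RefSeq product. It ran from 8 to 10 with either replicate left out. It was 4 with the narrow window, whose limit of 250 bp leaves out the summits farther upstream, and 6 without summits shared with another coding gene, a choice made after the data were seen. The median signal of the rpl summits, 148.5, was 187.4 in the conservative list, 144.1 with the long upstream window, and from 105.8 to 106.4 with either replicate left out, on the scale of the single lists. The median distance, -292 bp, was -104.5 with the narrow window and ran from -293.5 to -252 with either replicate left out. The median GC content was 53.9% in windows of 25 bp each side, where that of all promoter summits was 51.0%. The log2 ratio between replicates was -0.28 at matching distances of 50, 100 and 200 bp, and 7 summits in place of 8 were found by both replicates when 50% reciprocal overlap was asked for. No paired analysis was possible because the study has 1 group. Without read counts, no limit of depth can be given, and a missing peak cannot be told from shallow sequencing.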
